A study of Homo sapiens with 14 samples.

Results

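Genes that mark the preimplantation embryo, or early pluripotent and placental tissue, were followed in peak lists of chromatin remodelers and SOX2 from human embryonic stem cells (hESCs): DPPA2, DPPA4, DPPA3, DPPA5, KHDC3L, ARGFX, ALPP and ALPG. They are 8 of the 20033 protein-coding genes that GENCODE annotates on the chromosomes used here. Each gene body (hg38) was taken with 60 kb on each side. DPPA2 with DPPA4, and ALPP with ALPG, were read as 1 locus each, which gives 6 loci. The windows of DPPA5 and KHDC3L overlap because these genes lie 8381 bp apart, so all sums below are over 5 joined loci that cover 716 kb.

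Chromatin immunoprecipitation with sequencing (ChIP-seq) recovers the DNA to which a protein is bound, and a peak is a stretch where the precipitated reads exceed those of the input DNA. All samples came from WIBR3, an established hESC line for which the labels name no genetic change. Naïve WIBR3 cells were kept in 5i/L/A medium, to which primed cells had been reset and expanded as mixed rather than clonal cultures, and primed WIBR3 cells were kept in conventional medium with serum and FGF2. Both states grew on mitomycin C-treated mouse feeder fibroblasts. BRG1 (SMARCA4), BAF155 (SMARCC1) and BRM (SMARCA2) each had 1 library per state, SOX2 had 2 libraries per state, and 4 further samples were inputs, of the 14 in all.

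BAF complexes are ATP-driven machines that slide or evict nucleosomes. BRG1 and BRM are their alternative motor subunits, BAF155 is a scaffold, and SOX2 is a pluripotency transcription factor that binds enhancers together with OCT4. The followed genes are known from the oocyte, the cleavage embryo, the blastocyst or the placenta. DPPA2 and DPPA4 form a heterodimer of SAP-domain proteins linked to early embryonic genes. DPPA3 (STELLA) is a maternal factor that limits DNA methylation, DPPA5 and KHDC3L encode KH-domain RNA-binding relatives, ARGFX is a PRD-like homeobox gene of the cleavage embryo, and ALPP and ALPG encode the placental and germ-cell alkaline phosphatases.

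Every value here is a called peak from 1 list per state and antibody, so there is no replicate error and no p-value is given. A stretch without a peak may still be bound below the calling threshold, and binding in a smaller share of the cells cannot be told apart from weaker binding. The 2 SOX2 lists of each state held identical coordinates and were counted as 1 sample. Whole lists held 57884 naïve and 15611 primed BRG1 peaks, 62338 and 58352 BAF155 peaks, 17413 and 167 BRM peaks, and 1940 and 9290 SOX2 peaks. BAF155 is thus the antibody whose lists are of like length, while the naïve BRG1 list is 3.71 times as long as the primed one.

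SOX2 and the remodelers met at a few sites of these loci, of which 6 are shown because the comparison of the states turns on them. Each stretch of hg38 is 121 bases long, centred on the summit of a SOX2 peak and read on the plus strand, with the SOX words CATTGT or CTTTGT and the octamer word ATGCAAAT in capitals where they occurred on either strand. The DPPA5 site held the strongest SOX2 peak of all the loci, the DPPA4 upstream and ALPG sites were held in both states, the DDX43 intron site holds a repeated word, the DPPA3 downstream site was called in naïve cells alone and the DPPA4 promoter site in primed cells alone.
DPPA5 site, chr6:73349444-73349564: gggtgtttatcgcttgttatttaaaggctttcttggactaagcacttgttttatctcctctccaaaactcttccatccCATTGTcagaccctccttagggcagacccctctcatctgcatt
DPPA4 upstream site, chr3:109355837-109355957: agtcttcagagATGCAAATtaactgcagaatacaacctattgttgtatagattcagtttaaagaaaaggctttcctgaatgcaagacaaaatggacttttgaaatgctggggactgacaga
ALPG downstream site, chr2:232423599-232423719: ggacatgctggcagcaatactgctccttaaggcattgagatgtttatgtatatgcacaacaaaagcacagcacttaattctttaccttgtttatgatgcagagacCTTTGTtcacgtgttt
DDX43 intron site, chr6:73398575-73398695: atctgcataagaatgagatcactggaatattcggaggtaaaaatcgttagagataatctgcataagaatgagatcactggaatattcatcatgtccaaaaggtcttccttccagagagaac
DPPA3 downstream site, chr12:7758314-7758434: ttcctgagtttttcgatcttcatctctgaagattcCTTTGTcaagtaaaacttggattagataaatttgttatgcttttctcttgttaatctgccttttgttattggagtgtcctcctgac
DPPA4 promoter site, chr3:109337575-109337695: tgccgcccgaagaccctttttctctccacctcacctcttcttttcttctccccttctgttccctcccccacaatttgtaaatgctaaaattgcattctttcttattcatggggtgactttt

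Naïve cells carried many more BAF peaks than primed cells at all 5 loci. In total 76 naïve and 5 primed BRG1 peaks, and 62 naïve and 16 primed BAF155 peaks, had their midpoint in the loci. BAF155 counts were 12 naïve and 3 primed at DPPA2-DPPA4, 18 and 3 at DPPA3, 14 and 4 at DPPA5-KHDC3L, 6 and 2 at ARGFX, and 12 and 4 at ALPP-ALPG. For BRG1 they were 18 and 2, 19 and 0, 14 and 2, 10 and 1, and 15 and 0 in the same order. No primed BRG1 peak was called at the DPPA3 and ALPP-ALPG loci.

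**Figure D1:**
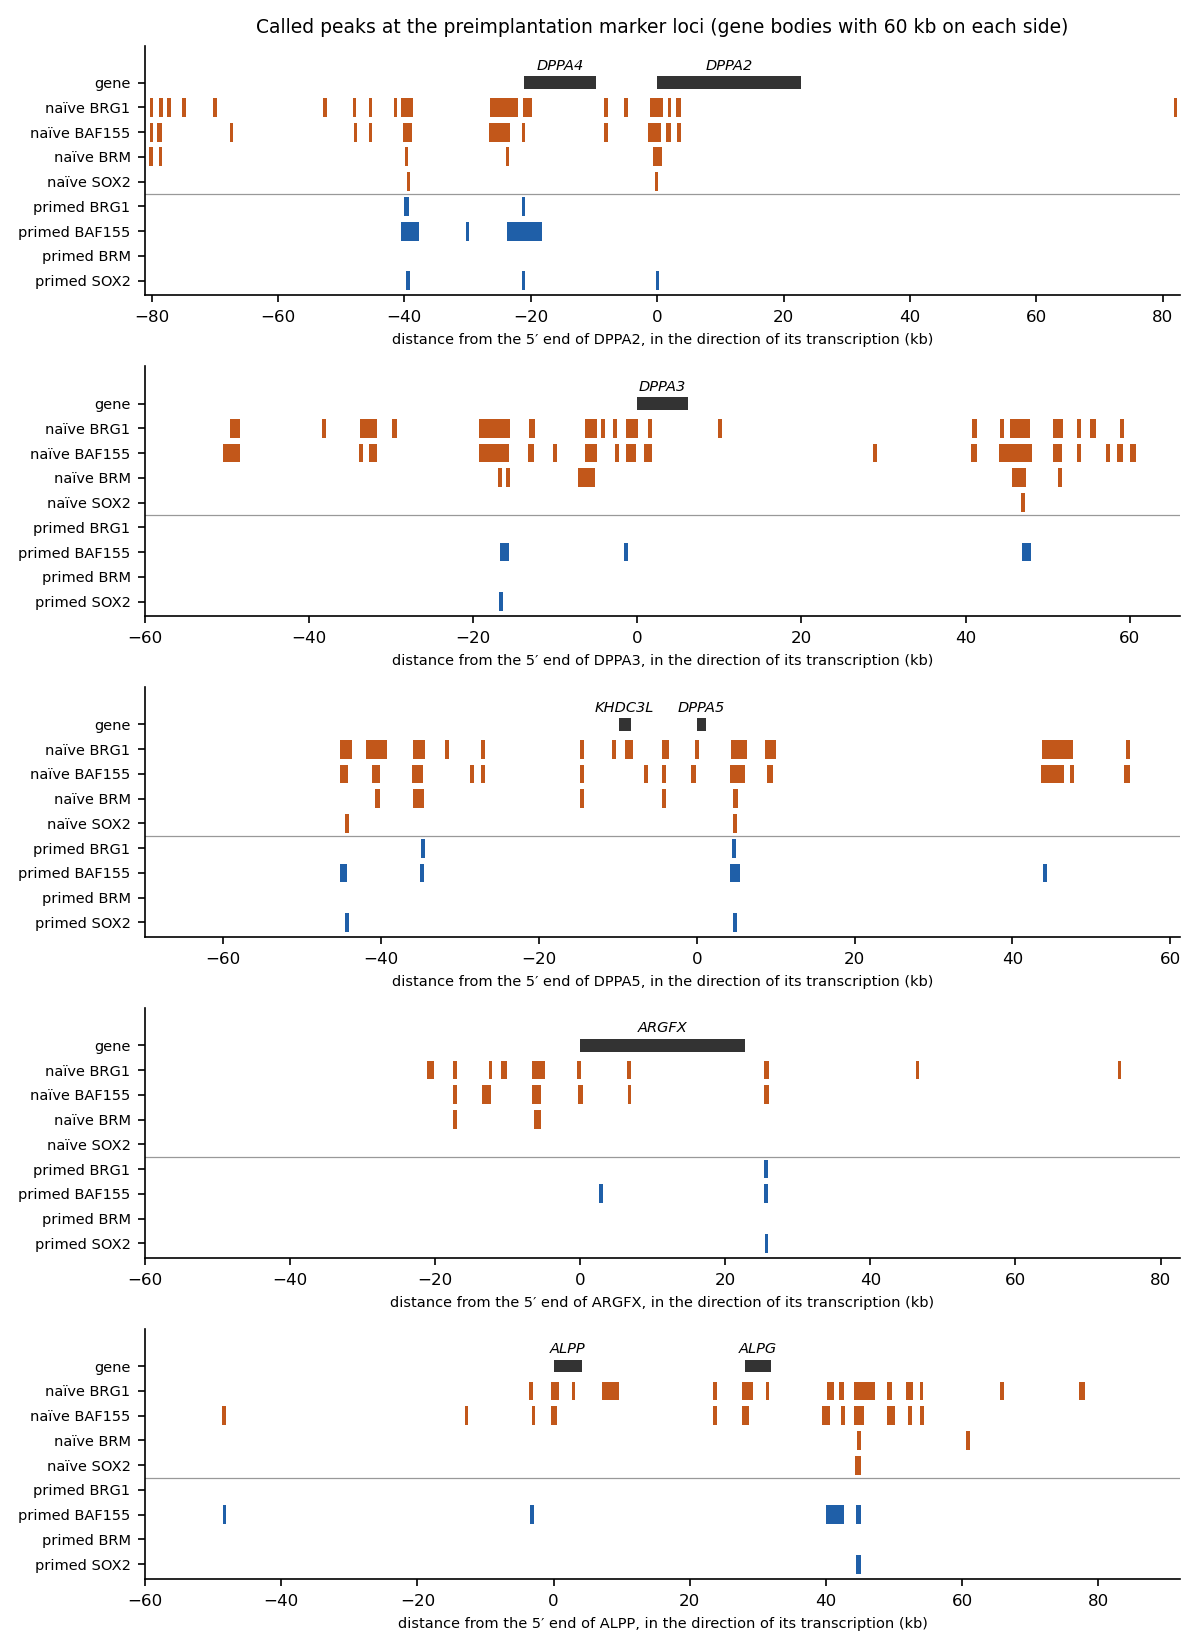
Called peaks in the 5 joined loci, 1 row per list (orange, naïve; blue, primed) with gene bodies above, plotted by distance in kb from the 5′ end of the gene named on each axis; peaks narrower than 0.5 kb are drawn 0.5 kb wide. The naïve BRG1 and BAF155 rows are the densest at every locus, and the primed BRM row is empty.

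Of all naïve and primed BAF155 peaks at the loci, 79.5% were naïve (exact 95% interval 68.8 to 87.8%, which covers counting error only), beside 51.7% of the 2 whole lists. For BRG1 the naïve share was 93.8% (86.2 to 98.0%) beside 78.8% of the lists. When both BRG1 lists were held to the 15611 peaks of lowest p, the loci kept 16 naïve and 5 primed BRG1 peaks. This is a naïve share of 76.2% (52.8 to 91.8%), to be read beside an equal split of the 2 cut lists rather than beside 78.8%. Holding BAF155 to equal lengths left 60 naïve and 16 primed peaks.

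More naïve than primed BAF155 peaks were counted in the windows of 8 of 8 members, against 54.8% of all protein-coding gene windows. For BRG1 this held for 8 of 8 against 87.2%, which is near the background. Presence alone did not set the members apart. At least 1 peak was found in 8 of 8 windows for naïve BRG1 (93.6% of all gene windows), naïve BAF155 (93%), naïve BRM (70.1%) and primed BAF155 (93.7%), and in 5 of 8 for primed BRG1 (71.9%). The member windows are not separate samples, since those of neighbouring members share most of their peaks. The locus count of 5 of 5 for BAF155 fell to 0 of 5 when only peaks of at least 4-fold over input were kept, which left 1 naïve and 2 primed BAF155 peaks.

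**Figure D2:**
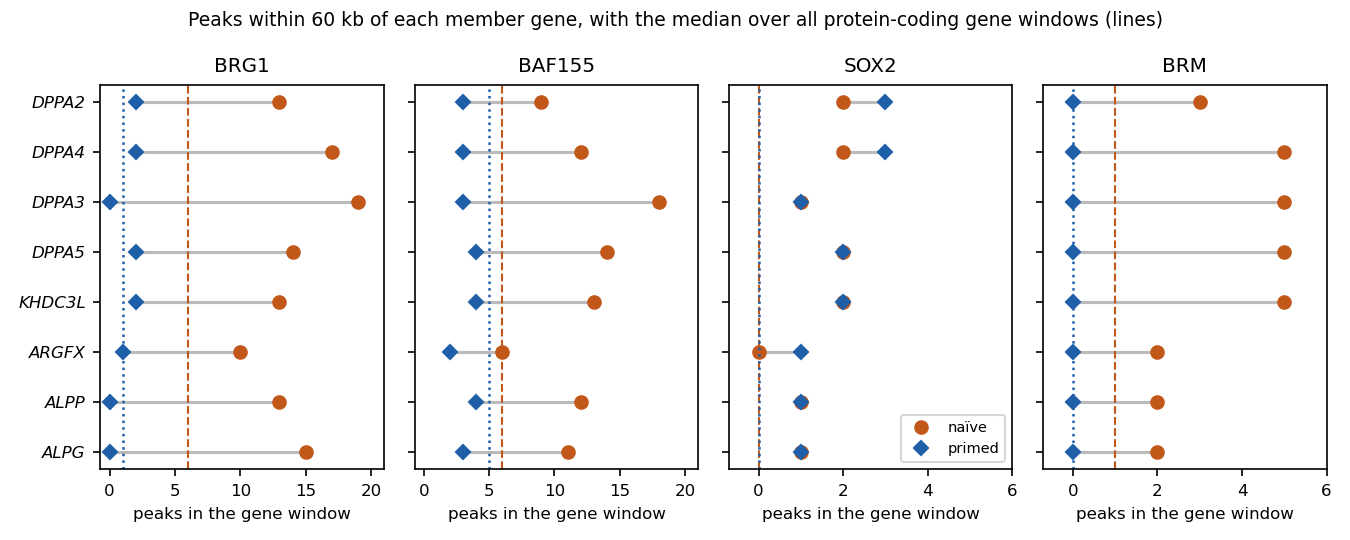
Peaks in the window of each member gene (gene body with 60 kb on each side) in naïve (circles) and primed (diamonds) cells, by antibody; dashed and dotted lines give the naïve and primed medians over 20033 protein-coding gene windows. Naïve BRG1 counts lie between 10 and 19 beside a median of 6, and primed BRG1 counts between 0 and 2.

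By naïve BRG1 and BAF155 peaks DPPA3 was the densest member and ARGFX the least dense, whereas naïve BRM was densest at DPPA5 and KHDC3L with 4.12 and 4.11 peaks per 100 kb. The DPPA3 window held 15.1 naïve BRG1 and 14.3 naïve BAF155 peaks per 100 kb, above 97.9% and 96.7% of all gene windows. In the ARGFX window these densities were 7.01 and 4.21 per 100 kb, above 78.1% and 55.4% of gene windows. The median over the 8 members was 11.1 naïve BRG1 and 9.40 naïve BAF155 peaks per 100 kb, against 3.30 and 3.65 over all genes. Primed BAF155 ran the other way, with a member median of 2.40 per 100 kb and 3.04 over all genes. Primed BRG1 did not, with a member median of 1.05 per 100 kb and 0.745 over all genes, from 0 to 2 peaks per member.

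Merging BRG1 and BAF155 peaks of a state gave 85 naïve and 16 primed BAF regions at the loci. A region was called shared where at least 25% of it, or of its partner in the other state, was covered. By this rule the loci held 69 naïve-only, 2 primed-only and 14 common regions, while the genome held 48336, 30335 and 27753. Of the naïve regions, 18.8% (11.2 to 28.8%) were shared with primed cells, against 37.4% genome-wide. Of the primed regions, 14 of 16 or 87.5% (61.7 to 98.4%) were shared with naïve cells, against 48.2%. BAF regions covered 88.3 kb of the loci in naïve and 19.1 kb in primed cells.

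The 2 primed-only regions were at the DPPA2-DPPA4 and ARGFX loci. One lay 8.99 kb upstream of DPPA4 in an intron of the lncRNA gene ENSG00000289358 (chr3:109346241-109346829, 2.74-fold over input). The other was in the first part of ARGFX, 2.89 kb into the gene (chr3:121570733-121570946, 3.00-fold), where GENCODE places another transcript start. Both were called with BAF155 alone.

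More naïve-only than primed-only regions were found around 8 of 8 members, against 66.1% of gene windows. DPPA3 stood highest with 19 naïve-only and 0 primed-only regions, a density above 99.4% of all gene windows. DPPA4 had 15 and 1, DPPA5 13 and 0, KHDC3L 12 and 0, ALPG 12 and 0, ALPP 10 and 0, DPPA2 10 and 1 and ARGFX 9 and 1. The naïve regions were spread over the loci, with a median distance of 17.6 kb from the nearest member 5′ end, 33 of 85 within 10 kb and 28 beyond 30 kb. These distances run from the nearest edge of a region, whereas those of named sites run from the midpoint. A member was the nearest protein-coding start for 52 of the 85.

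The naïve BRG1 and BAF155 peaks here were wide and of modest fold over input. Their median fold over input was 2.84 for BRG1 and 2.77 for BAF155, slightly under the list medians of 2.93 and 2.89, and 0 of 76 BRG1 peaks and 1 of 62 BAF155 peaks reached 4-fold. Median widths were 658 and 668 bp, against 463 and 479 bp in the whole lists. The few primed BAF155 peaks had a median of 3.43-fold, against 3.28 in their list. In their whole lists 5.06% of naïve BRG1 and 5.05% of naïve BAF155 peaks reached 4-fold.

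The strongest naïve BAF region of the DPPA5-KHDC3L locus lay between these genes, 3.93 kb upstream of DPPA5 (chr6:73357743-73358669), with 4.08-fold over input and a BRM peak of 3.30-fold. At DPPA2-DPPA4 it was 57.6 kb upstream of DPPA4 in intergenic DNA (chr3:109394770-109395604, 3.91-fold). At ALPP-ALPG it covered coding sequence of ALPP, 2.91 kb into the gene (chr2:232381461-232381812, 3.76-fold). At DPPA3 it was intergenic, 51.3 kb downstream near NANOGNB (chr12:7762111-7763332, 3.57-fold). At ARGFX it was intronic, 6.76 kb into the gene (chr3:121574566-121574860, 3.14-fold). None of these 5 regions was shared with primed cells.

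At promoters the members had BRG1 or BAF155 peaks in naïve cells and, with DPPA4 as the exception, neither in primed cells. A naïve BRG1 peak lay within 1 kb of the 5′ end of 8 of 8 members, against 58.7% of protein-coding promoters, and a naïve BAF155 peak of 7 of 8, against 59.4%. The BRG1 count fell to 2 of 8 with BRG1 lists of equal length and to 3 of 8 at a −log10 q of at least 3, where BAF155 was also at 3 of 8. In primed cells only the DPPA4 promoter had a BRG1 peak (background 27.5%) or a BAF155 peak (background 65.8%). So 7 of 8 members had a naïve BRG1 or BAF155 peak and neither in primed cells, while 6.91% of all promoters had this pattern. The 7 were DPPA2, DPPA3, DPPA5, KHDC3L, ARGFX, ALPP and ALPG. The pattern remained for 5 of 6 members without ALPP and ALPG, and for 6 of 8 with lists of equal length. It was also at 6 of 8 with promoters of 2.5 kb on each side, and at 6 of 8 with the 5′ end of any transcript. When a −log10 q of at least 3 was required, it remained for 3 of 8 (DPPA2, ALPP and ALPG).

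**Figure D3:**
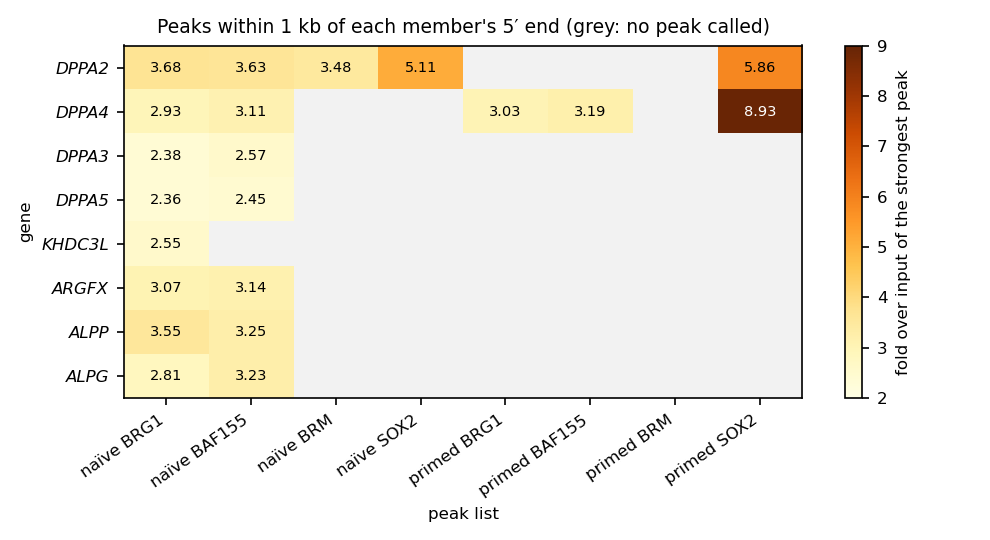
Fold over input of the strongest peak within 1 kb of each member's 5′ end, by peak list (columns) and gene (rows); grey cells have no called peak. SOX2 values are from narrow peaks and all others from broad peaks, so the SOX2 columns are not to be compared with the rest. Naïve BRG1 fills its column from 2.36 (DPPA5) to 3.68 (DPPA2), and primed BRG1 and BAF155 have a value at DPPA4 alone.

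The DPPA2 promoter carried all 4 naïve proteins. Its peaks were 3.68-fold for BRG1, 3.63-fold for BAF155, 3.48-fold for BRM and 5.11-fold for SOX2. The SOX2 value is from a narrow peak and the others are from broad peaks, so they are not on the same scale. DPPA2 was the sole member whose promoter had a naïve BRM peak (background 16.4%) or a naïve SOX2 peak (background 0.225%). In primed cells SOX2 was called at the same place with 5.86-fold, but no BAF peak was.

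DPPA4, whose start lies 21.03 kb away on the same strand, was the reverse case. BRG1 reached 2.93-fold and BAF155 3.11-fold in naïve cells, and 3.03-fold and 3.19-fold in primed cells. The primed BAF155 peak was 5531 bp wide and the naïve one 291 bp. SOX2 was called at 8.93-fold in primed cells and not in naïve cells. Primed SOX2 peaks were thus at 2 of 8 member promoters, DPPA2 and DPPA4, against a background of 2.96%, and at 0 of 8 with SOX2 lists of equal length.

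The remaining promoters had naïve BAF peaks only. At ALPP BRG1 stood at 3.55-fold and BAF155 at 3.25-fold, and at ALPG at 2.81-fold and 3.23-fold. ARGFX had 3.07-fold and 3.14-fold. The weakest were DPPA3 with 2.38-fold and 2.57-fold, DPPA5 with 2.36-fold and 2.45-fold, and KHDC3L with a BRG1 peak of 2.55-fold and no BAF155 peak. A primed BAF155 peak of 3.39-fold lay just outside the 1 kb bound of the DPPA3 promoter, 1.34 kb upstream (chr12:7710013-7710176). It overlapped the naïve BAF region at that promoter (chr12:7710051-7711492), which by the region rule was shared between the states. The absence of primed BAF at DPPA3 thus rests on the 1 kb bound.

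The promoter sequences of 4 members are given from RefSeq (GRCh38.p14), in the direction of transcription and up to the base before the start, because they hold the words searched for KLF factors (GGGTGTGGC, GGGTGGGGC, GGGCGTGGC or GGGCGGGGC) or TFAP2 factors (GCCNNNGGC), which are in capitals. For ALPP the stretch ends where the GENCODE gene begins.
DPPA2, chr3:109316518-109316767: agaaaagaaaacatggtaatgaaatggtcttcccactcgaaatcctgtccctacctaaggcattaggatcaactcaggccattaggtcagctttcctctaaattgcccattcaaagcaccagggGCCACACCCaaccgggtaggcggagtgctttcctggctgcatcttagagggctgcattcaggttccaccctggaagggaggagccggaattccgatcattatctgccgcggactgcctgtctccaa
DPPA5, chr6:73354277-73354526: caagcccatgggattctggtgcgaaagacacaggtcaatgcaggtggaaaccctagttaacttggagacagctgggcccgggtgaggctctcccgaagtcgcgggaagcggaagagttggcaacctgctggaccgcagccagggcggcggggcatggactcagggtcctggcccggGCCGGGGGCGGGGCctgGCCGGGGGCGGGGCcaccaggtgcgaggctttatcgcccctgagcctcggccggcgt
ALPP, chr2:232378501-232378723: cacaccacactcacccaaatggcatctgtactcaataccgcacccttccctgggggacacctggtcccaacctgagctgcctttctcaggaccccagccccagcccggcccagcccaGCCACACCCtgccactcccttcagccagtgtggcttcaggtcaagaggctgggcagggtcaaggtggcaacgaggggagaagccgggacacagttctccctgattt
ALPG, chr2:232406594-232406843: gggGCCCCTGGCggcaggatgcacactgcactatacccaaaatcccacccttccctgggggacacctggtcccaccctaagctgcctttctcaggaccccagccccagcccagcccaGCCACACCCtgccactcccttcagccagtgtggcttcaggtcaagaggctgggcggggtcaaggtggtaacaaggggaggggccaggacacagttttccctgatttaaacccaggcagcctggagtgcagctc

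Of the 8 members 7 matched the RefSeq promoter table, which spans 250 bases before and 50 after each start. A KLF word on either strand was in 4 of 7 member promoters, against 18.4% of 35116 promoters. ALPP and ALPG, both among the 4, hold the same word in nearly the same sequence, so they are not separate occurrences. A TFAP2 word was in 2 of 7 (DPPA5 and ALPG), against 23.2%. In DPPA5 each of the 2 KLF words overlaps a TFAP2 word. A SOX word was in 1 of 7, DPPA2, against 24.5%, and an octamer word in 0 of 7, against 1.77%. GC content of the printed stretches ran from 52% at DPPA2 to 68.8% at DPPA5, and the DPPA3 promoter, not shown, had 35.6%.

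ALPP and ALPG are near copies. Their upstream stretches were identical at 92.7% of 234 aligned bases and their gene bodies at 93.9% of 3825. Reads of the BAF libraries were 75 bases long, and 5.60% of the 75-base words in the 2 kb around either start occur more than once in hg38. In the ALPP coding region named above this share was 21.3%. The part of this likeness in the ALPP and ALPG counts was not tested. Over all 85 naïve BAF regions the median share was 0%, and in 0 of them did it pass 50%.

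BRM was present at every locus in naïve cells. The 19 naïve BRM peaks comprised 5 each at DPPA2-DPPA4, DPPA3 and DPPA5-KHDC3L and 2 each at ARGFX and ALPP-ALPG. All 8 member windows held at least 2, against 48.7% of gene windows, and the member median was 2.95 per 100 kb against 0.775. Primed BRM had 0 peaks at the loci and 0 at the 8 promoters, in a list of 167 that reached 0.619% of gene windows and 0.0849% of promoters.

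BRM followed BAF here at the genome-wide rate. Of the 85 naïve BAF regions, 17 had a BRM peak, or 20% (12.1 to 30.1%), against 20.4% of all naïve BAF regions, and 18 of 19 BRM peaks were in a BAF region, against 94.3% of the BRM list. The regions with BRM were stronger and wider, with medians of 3.26-fold and 1741 bp against 2.84-fold and 663 bp without, and genome-wide these medians were 3.34-fold and 945 bp against 2.88-fold and 449 bp. Among naïve-only regions 10 of 69 had BRM, or 14.5% (7.17 to 25.04%), and among common regions 7 of 14, or 50% (23.04 to 76.96%). Genome-wide these shares were 14.2% and 32%, inside both intervals.

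The strongest BRM peak was 4.74-fold, 51.6 kb downstream of DPPA3 (chr12:7762845-7763127), within the strongest BAF region of that locus, and ranked 889 of 17413. At DPPA5-KHDC3L the strongest was 3.76-fold, 6.21 kb downstream of the KHDC3L start in OOEP. It was 3.48-fold at the DPPA2 promoter, 3.48-fold at the ALPG downstream site and 3.04-fold at ARGFX, 17.3 kb upstream.

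SOX2 was called at the loci in both states. They held 6 naïve and 8 primed SOX2 peaks at 9 sites, a naïve share of 42.9% (17.7 to 71.1%) beside 17.3% of the 2 whole lists. With the primed list held to the length of the naïve one, the loci held 6 naïve and 3 primed peaks, or 66.7% (29.9 to 92.5%). The 2 lists are then split equally, and this interval includes an equal split. Naïve SOX2 was found in the windows of 7 of 8 members, ARGFX being the exception, against 13.2% of gene windows. Primed SOX2 was found around 8 of 8, against 42.5%. A naïve BRM peak and SOX2 peaks of both states lay somewhere in the windows of 7 of 8, against 8.62%. The peaks need not share a site, and at DPPA3 the SOX2 peaks of the states did not. Windows of neighbouring members share most of their peaks, so these member counts are not separate cases. By joined locus, naïve SOX2 was found at 4 of 5 and primed SOX2 at 5 of 5.

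SOX2 was called in both states at 5 of the 9 sites. A primed SOX2 peak overlapped 5 of the 6 naïve ones, or 83.3% (35.9 to 99.6%). The share of 47.9% in the naïve list lies inside this interval. Conversely 5 of 8 primed SOX2 peaks had a naïve partner, or 62.5% (24.5 to 91.5%), against 10.0% of the primed list. The summits of the 5 shared pairs lay between 3 and 41 bp apart.

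**Figure D4:**
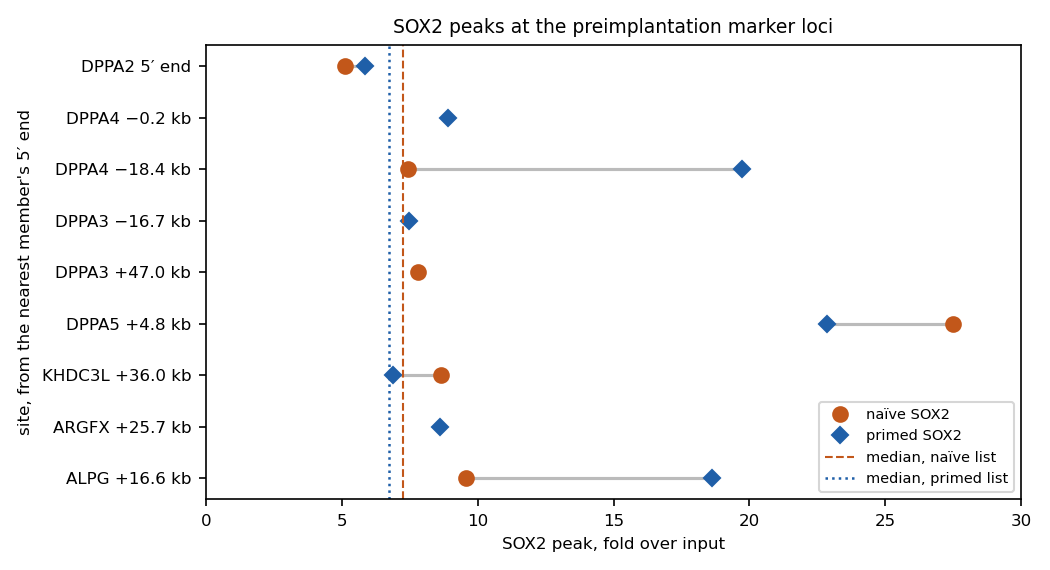
Fold over input of the SOX2 peaks at the 9 sites in the loci (circles, naïve; diamonds, primed), named by distance from the nearest member's 5′ end, with the median of each whole list as a vertical line. The site beside DPPA5 has 27.5-fold in naïve and 22.8-fold in primed cells, and the sites upstream of DPPA4 and downstream of ALPG are higher in primed cells.

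Fold values of the states come from libraries called separately against their own inputs, so a difference in fold has no replicate check. The highest SOX2 peak stood 4.82 kb downstream of the DPPA5 start, beyond its 3′ end in intergenic DNA. In naïve cells it was 27.5-fold and ranked 6 of 1940 by fold, and in primed cells 22.8-fold and 78 of 9290. All 4 naïve proteins and all primed ones except BRM were called there, with BAF155 at 3.03-fold in naïve and 5.38-fold in primed cells. The printed stretch has 1 SOX word, 21 bp from the naïve summit, and no octamer word.

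The site 18.4 kb upstream of DPPA4, in an intron of ENSG00000289358, was occupied in both states by everything except primed BRM. SOX2 was 7.43-fold in naïve and 19.7-fold in primed cells, where it ranked 163. BAF155 was 2.26-fold and 4.94-fold, and BRG1 2.62-fold and 3.89-fold. This stretch contains the octamer word and no SOX word. At the ALPG downstream site, 16.6 kb from the start, SOX2 was 9.58-fold in naïve and 18.6-fold in primed cells and BAF155 3.26-fold and 3.92-fold, with no primed BRG1 peak. There 25.7% of the 75-base words of the naïve SOX2 peak recur in hg38, a word length set by the BAF reads, while the SOX2 reads were longer and paired.

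The DDX43 intron site, 36.0 kb from the KHDC3L start, carried SOX2 at 8.67-fold in naïve and 6.89-fold in primed cells. The naïve SOX2 peak there spans a word of 57 bases that recurs 55 bases further on, of which the printed stretch shows a part. The longest such word at the other 8 SOX2 sites was 18 bases.

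At the DPPA3 locus SOX2 was called at different sites in the states. In naïve cells it was called at 7.80-fold 47.0 kb downstream of DPPA3, and in primed cells at 7.47-fold 16.7 kb upstream, in GDF3. Naïve BRG1, BAF155 and BRM and primed BAF155 were called at both places. At ARGFX the sole SOX2 peak was primed, 8.60-fold at the start of FBXO40, 25.7 kb from the ARGFX start.

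A SOX word stood within 60 bp of the summit in 4 of 6 naïve peaks, against 47.5% of the naïve list, and in 3 of 8 primed peaks, against 48.5%. An octamer word did so in 1 of 6 and 1 of 8, against 11.1% and 6.62%.

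The SOX2 sites fell in common rather than naïve-only BAF regions. All 9 SOX2 sites had naïve BRG1 and BAF155 peaks, including the 3 at which SOX2 was called in primed cells alone, and 8 of 9 had primed BAF155, DPPA2 being the exception. Counted by region, 8 of the 14 common BAF regions held a SOX2 peak of either state, or 57.1% (28.9 to 82.3%), against 15.0% of common regions genome-wide. Only 1 of the 69 naïve-only regions did, at the DPPA2 promoter, or 1.45% (0.0367 to 7.81%), against 1.67%, so that share is at the background. Common regions at the loci had a median GC content of 47.75% in the 200 bp around their midpoints, against 59% for common regions genome-wide. The part of this difference in the SOX2 share of common regions was not tested. All 6 naïve SOX2 peaks were in a naïve BAF region, against 93.0% of their list, and 7 of 8 primed ones in a primed BAF region, against 88.4%.

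For every word searched, the naïve-only regions at the loci differed from all naïve-only regions by less than the counting error. In the 200 bp around their midpoints a SOX word was in 20.3% (11.6 to 31.7%) of the 69, against 22.3% of all naïve-only regions, and an octamer word in 1.45%, against 2.76%. KLF words were in 1.45% against 5.54%, TFAP2 words in 8.70% against 10.7%, ZIC words (CCTGCTG) in 2.90% against 7.12%, and TEAD words (GGAATG) in 5.80% (1.60 to 14.2%) against 13.8%. Each of these 6 intervals included the genome value. Median GC content was 49.5% both at the loci and over all naïve-only regions.

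Related genes gave a frame for the members. The lists share members with the 8 followed here, namely KHDC3L, ARGFX, ALPP and ALPG, and some windows overlap. In the subcortical maternal complex group (KHDC3L, NLRP5, OOEP, TLE6, PADI6 and NLRP7), which acts in the oocyte and early embryo, 6 of 6 windows held more naïve than primed BAF155 peaks. The alkaline phosphatases (ALPP, ALPG, ALPI and ALPL) did so in 4 of 4 and the naïve markers KLF17, SUSD2, DNMT3L, TFCP2L1, KLF4 and TFAP2C in 6 of 6. Of the PRD-like homeobox genes (ARGFX, DPRX, DUXA, DUXB, LEUTX and TPRX1) 4 of 6 did. Of 8 primed markers, among them SFRP2, ZIC2 and OTX2, 0 did. Over all protein-coding gene windows the share was 54.8%, and the PRD-like count is near it. The study itself shows NLRP7, TFAP2C and, among the primed markers, SALL1 and PTPRZ1 as example loci of state-specific BAF binding. These examples come from the same peaks, so the direction of these genes was known beforehand and is no independent support.

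At promoters the related genes were more mixed. Over all promoters 6.91% had a naïve BAF peak with none in primed cells. This was so at 3 of 6 maternal complex promoters, 3 of 6 naïve markers, 0 of 8 primed markers and 1 of 6 PRD-like genes, which was ARGFX. The other 5 PRD-like genes had no naïve BAF peak at their start, and TPRX1 had BRG1, BAF155 and SOX2 peaks in primed cells. Among the alkaline phosphatases ALPP, ALPG and ALPI had the naïve pattern, while ALPL, the tissue-nonspecific enzyme, was occupied by BRG1 and BAF155 in both states and by SOX2 in primed cells.

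**Figure D5:**
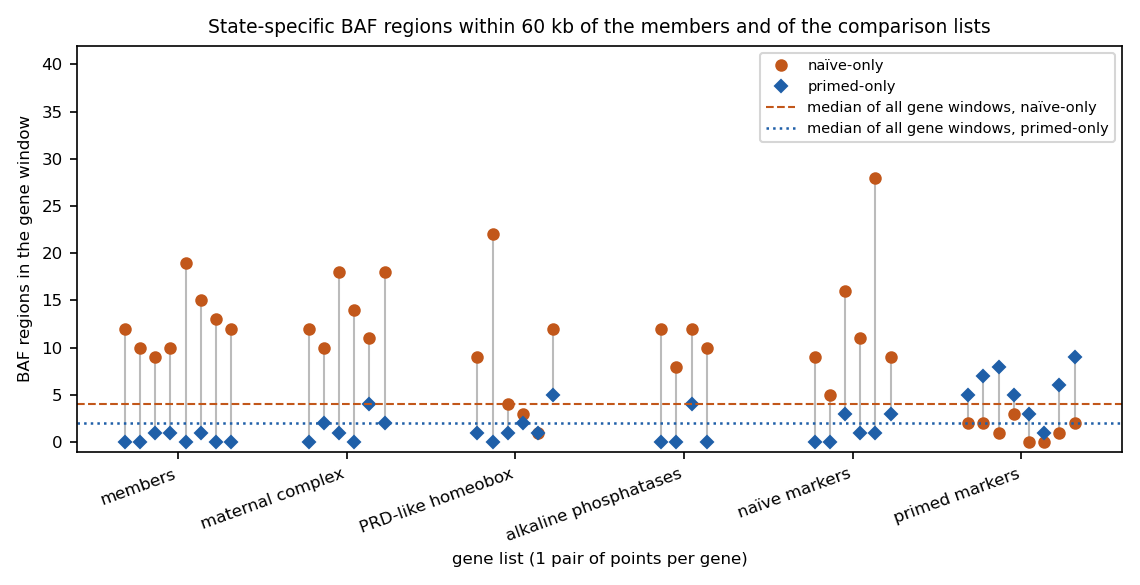
Naïve-only (circles) and primed-only (diamonds) BAF regions in the window of each gene, by gene list, with the medians over all protein-coding gene windows (4 and 2) as lines. The members have 9 to 19 naïve-only regions and 0 or 1 primed-only region each, and the primed markers have more primed-only than naïve-only regions.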

How the data were processed

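Peak lists of naïve and primed WIBR3 hESCs were used as deposited. According to the study's methods and the submitters' processing notes, reads were aligned to hg38 with Bowtie2 2.3.4, duplicates were removed (SAMtools 0.1.19 for single-end reads) and MACS2 was run against input, with broad peaks for BRG1, BAF155 and BRM and narrow ones for SOX2. The deposited columns used here were fold over input, −log10 p and −log10 q. The deposited score column was read but no result rests on it. Primed BRM and the second SOX2 lists gave positions alone. Read depth was not used in the counts. A shallower library could yield fewer called peaks. The study's quality metrics list more non-redundant uniquely mapped reads for primed than for naïve BRG1, and likewise for BAF155. The part of depth in the list lengths was not tested.

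Only the numbered chromosomes, X and Y entered. A peak counted where its midpoint fell in a window of GENCODE release 44 gene bodies (Python 3.11.15, numpy 2.4.6). Promoter peaks overlapped the 1 kb on either side of a gene's 5′ end. Overlap and window counts were checked on simulated peaks. Confidence intervals are exact Clopper-Pearson (scipy 1.17.1). With 1 list per group no test was made. Named sites were all promoter peaks, the highest BAF and BRM peak per locus, and SOX2 peaks, all where a locus had 5 or fewer and otherwise the highest per state. The members and lists were chosen with earlier results of these data known. Fold cuts, q cuts, flanks, overlap rules, list lengths, promoter widths and motif windows were varied.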

Additional observations from a re-analysis of the deposited data

How the results depend on the processing

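Limits: no error between cultures can be given with 1 list per group, the lists differ in length, and most BAF peaks at the loci lie close to the calling threshold. No paired analysis was possible because the BAF antibodies had 1 library per state and the 2 SOX2 lists of a state were identical (leaving out either gave 6 naïve and 8 primed SOX2 peaks again). The locus left out as the one with most peaks was DPPA3. Of 190 values recomputed, 53 moved past the limit of 1.5 times or, for shares, past the exact interval. With 20 kb flanks the loci held 42 naïve BRG1, 37 naïve BAF155 and 12 naïve BRM peaks, 36 naïve-only and 9 common regions. With 100 kb they held 8 primed BRG1 and 29 primed BAF155 peaks, 5 primed-only and 24 common regions. Peaks of at least 4-fold left 0 naïve BRG1, 1 naïve BAF155, 1 BRM, 0 primed BRG1 and 2 primed BAF155 peaks, 1 naïve-only and 0 common regions, 0 of 5 loci with more naïve BAF155, BRM at 0% of 1 naïve region, and 0% of naïve and 25% of primed SOX2 peaks in BAF regions. A −log10 q of at least 3 left 18, 21 and 3 naïve BRG1, BAF155 and BRM peaks, 1 primed BRG1 and 9 primed BAF155 peaks, 22 naïve-only and 7 common regions and BRM at 10.3%. At promoters it left naïve BRG1 at 3, naïve BAF155 at 3 and primed BRG1 at 0 of 8, with naïve BAF and no primed BAF at 3. Equal list lengths gave 16 naïve BRG1 and 3 primed SOX2 peaks, 100% of those 3 in BAF regions, and, chosen after seeing the data, promoters with naïve BRG1 at 2 and with primed SOX2 at 0 of 8. Overlap of 25% of both regions gave 4 primed-only regions and 33.3% of naïve SOX2 peaks in BAF regions, and 50% of both gave 10 primed-only and 6 common regions, BRM at 5.88%, and 0% of naïve and 25% of primed SOX2 peaks in BAF regions. BRG1 alone gave 0 primed-only and 5 common regions. Promoters of 2.5 kb on each side had naïve BRM at 2 and primed BAF155 at 2 of 8, and the 5′ end of any transcript had primed BAF155 at 2. In 500 bp windows SOX, TFAP2, TEAD and ZIC words were in 36.2%, 26.1%, 20.3% and 15.9% of naïve-only regions, where wider windows hold more words by construction.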

Other observations

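The 10 other protein-coding genes that start inside the loci had promoters much like those of the members. Naïve BRG1 peaks were at 9 of 10 and naïve BAF155 peaks at 7 of 10, against 58.7% and 59.4% of all promoters. Primed BRG1 was at 1 and primed BAF155 at 3, against 27.5% and 65.8%. A naïve BAF peak with none in primed cells was at 6 of 10, against 6.91% of all promoters. The 6 were CLEC4C and NANOGNB beside DPPA3, DDX43 and OOEP beside KHDC3L, POLQ beside ARGFX, and ALPI beside ALPG. OOEP, a subunit of the subcortical maternal complex, and DDX43, a putative RNA helicase, start close together by their GENCODE gene records. The same naïve BRG1, BAF155 and BRM peaks lay at both promoters, with BRM at 2.57-fold, so they are not separate cases. Only the start of the gene record was used for OOEP. A further naïve region inside OOEP, also annotated as promoter (chr6:73368671-73369035), had BRG1 at 3.47-fold, BAF155 at 3.12-fold and BRM at 3.76-fold. GDF3, a TGF-beta family ligand of pluripotent cells, had naïve BRG1, BAF155 and BRM peaks and primed BAF155 and SOX2 peaks. FBXO40 was the sole neighbour with primed BRG1. APOBEC1 had no peak at its promoter in any of the 8 lists.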
